A study of Mus musculus with 4 samples.

Results

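The 10 genes described here specify midbrain dopaminergic (mDA) neurons or let them make, store, recapture and respond to dopamine. They are Nr4a2, Pitx3, Th, Ddc, Gch1, Slc18a2, Slc6a3, Drd2, Kcnj6 and Calb1. They were taken by gene symbol from an array table of 28856 transcript clusters (probe sets that each cover a transcript), and each of the 10 was paired with 1 cluster that carries no other symbol, out of 19938 genes named in this way. Expression was measured in 4 sorted populations with 1 array each. In culture, mouse ESCs of a 129SVEV line with GFP knocked in at Lmx1a were differentiated by the SFEBq aggregate method, and the GFP-positive cells of day 9 were sorted by CORIN. The sorts CORIN+LMX1A::GFP+ and CORIN-LMX1A::GFP+ are called cultured CORIN+ and cultured CORIN- cells below, and both carry the knock-in and passed the GFP gate. In the fetus, CORIN+ and CORIN- cells were sorted from the E11.5 ventral midbrain (VM) of C57BL/6N mice, with no LMX1A gate. The cultured cells thus come from 1 reporter line, and source, strain and gate cannot be told apart in any comparison of culture with fetus. The number of embryos and cultures behind an array is not given in the sources used here.

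Dopamine is made from tyrosine in a pair of steps. TH, which needs the cofactor tetrahydrobiopterin, makes L-DOPA, and DDC turns it into dopamine. GCH1 starts the synthesis of that cofactor, the vesicular transporter SLC18A2 (VMAT2) loads dopamine into vesicles and SLC6A3 (DAT) takes it back up at the plasma membrane. The nuclear receptor NR4A2 (NURR1) and the homeobox factor PITX3 specify mDA neurons. The paper places NR4A2 in postmitotic mDA progenitors of the intermediate and mantle zones of the VM and in mature mDA neurons. CORIN marks earlier floor plate progenitors in the ventricular zone. The receptor DRD2, the potassium channel KCNJ6 (GIRK2) and the calcium-binding protein CALB1 (calbindin) are used to describe mature mDA neurons and their subtypes.

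The stretch before the start of the gene is shown for Th and Nr4a2, the mDA genes with the highest CORIN+ minus CORIN- differences of the fetal pair among the 10, and for Gch1, whose stretch holds a motif found in both. RefSeq promoters of the GRCm38.p6 build were found for 9 of the 10 genes, 11 promoters in all, and the 250 bases before the start are used, 5′ to 3′ on the strand of the gene. They lie at chr7:142899996-142900245 (Th), chr2:57124004-57124253 (Nr4a2) and chr14:47189414-47189663 (Gch1), each on the minus strand. Capitals mark every match, on either strand, to TGACG (a half-site of the cyclic AMP response element), AGGTCA (a half-site of nuclear receptors), TAATCC (a site of bicoid-type homeobox factors) and TATAAA (the TATA box).
Th: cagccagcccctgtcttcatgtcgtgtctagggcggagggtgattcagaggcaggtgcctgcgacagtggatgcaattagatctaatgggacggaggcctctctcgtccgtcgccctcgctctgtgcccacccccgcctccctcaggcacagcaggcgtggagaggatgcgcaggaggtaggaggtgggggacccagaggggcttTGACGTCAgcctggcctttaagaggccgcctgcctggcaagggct
Nr4a2: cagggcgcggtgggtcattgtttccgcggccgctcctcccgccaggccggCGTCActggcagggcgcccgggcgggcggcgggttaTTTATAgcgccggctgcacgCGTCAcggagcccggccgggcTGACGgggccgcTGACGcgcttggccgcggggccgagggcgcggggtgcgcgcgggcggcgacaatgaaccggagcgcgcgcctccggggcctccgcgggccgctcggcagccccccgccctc
Gch1: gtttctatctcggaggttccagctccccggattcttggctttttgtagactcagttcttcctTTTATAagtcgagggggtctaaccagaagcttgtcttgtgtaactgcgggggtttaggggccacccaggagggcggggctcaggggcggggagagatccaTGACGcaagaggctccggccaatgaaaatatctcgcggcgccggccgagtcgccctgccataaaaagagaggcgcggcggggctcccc
The Th stretch holds TGACG on both strands, in an overlapping pair that forms 1 run of capitals from 45 to 38 bases before the start. The Nr4a2 stretch holds TGACG 4 times and TATAAA 1 time on the opposite strand. TGACG occurred in 3 of the 11 promoters of these genes and in 17.8% of 32851 promoters of the same length. AGGTCA occurred in 1 of the 11, a promoter of Ddc, against 14.0% of all promoters, TATAAA in 3 of the 11, against 12.4%, and TAATCC in 0 of the 11, against 6.25%. These matches are letters in a window and were not tied to any array value.

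Values are the authors' log2 signals, and a difference is the first population minus the second on that scale, so that 1 stands for 2-fold. With 1 array per population no difference has an error, a p-value or a replicate check, and precision is limited by how few arrays there are. Brightness differs between probe sets, so each gene is compared with itself across arrays and not with another gene. Over all clusters the median difference lay between -0.037 and 0.016 in the 4 comparisons. The scaled median absolute deviation (MAD) of the differences, used here as a measure of their width, was 0.146 within the cultured pair, 0.162 within the fetal pair, 0.245 between CORIN+ cells of culture and fetus and 0.259 between CORIN- cells of culture and fetus. Corin, the target of the sort, was higher in the CORIN+ population by 1.96 in culture and by 4.15 in the fetal VM.

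**Figure D1:**
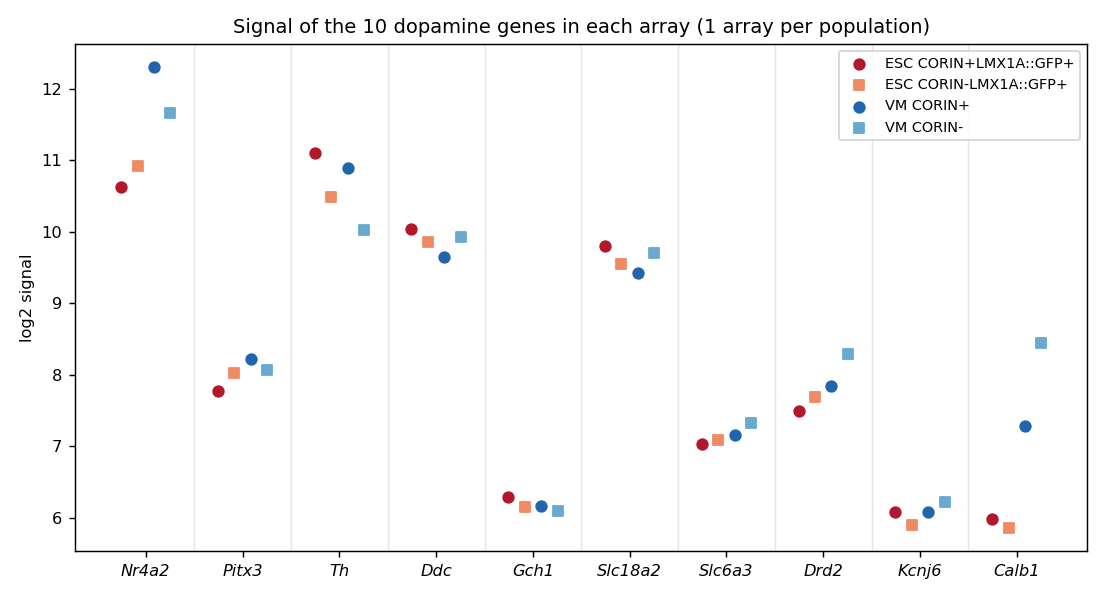
Log2 signal (vertical axis) of each of the 10 genes in the 4 arrays, 1 array per population, with red and orange for ESC-derived and blue for fetal cells. Points are to be compared within a gene: Nr4a2 and Calb1 were higher in both fetal arrays, Th was higher in both CORIN+ arrays, and Gch1 spanned 0.19 log2 units over the 4 arrays.

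Th encodes the rate-limiting enzyme of the pathway and was higher in the CORIN+ population of both sources. Its log2 signal was 11.10 in cultured CORIN+ and 10.49 in cultured CORIN- cells, a 1.52-fold higher level. The fetal CORIN+ array read 10.89 and the fetal CORIN- array 10.02, 1.82-fold apart. Both CORIN+ arrays thus lay above both CORIN- arrays, and the difference ranked 362nd from the top of 28856 clusters in culture and 936th in the fetal VM. Ddc, the next enzyme of the pathway, did not follow this order. Its signal was 10.03 in cultured CORIN+ and 9.85 in cultured CORIN- cells, a difference of 0.18. It was 9.64 in fetal CORIN+ and 9.93 in fetal CORIN- cells, a difference of -0.29. The first enzyme of cofactor synthesis, Gch1, hardly varied. It stood at 6.29 in cultured CORIN+ and 6.15 in cultured CORIN- cells, and at 6.17 in fetal CORIN+ and 6.10 in fetal CORIN- cells. Gch1 was the only one of the 10 genes within the MAD in all 4 comparisons, as were 34.4% of all clusters.

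Nr4a2, which mDA neurons need for their fate and for the expression of Th, had opposite signs in the sorted pairs and was highest in fetal CORIN+ cells. It read 10.62 in cultured CORIN+ and 10.91 in cultured CORIN- cells, 1.22-fold lower with CORIN. The paper's own expression comparison of the cultured sorts went the other way. It reports Nurr1 (Nr4a2) as significantly higher in CORIN+LMX1A::GFP+ cells than in the other sorts. Its day 9 immunostaining placed NURR1 protein in CORIN-LMX1A::GFP+ cells. Fetal CORIN+ cells stood at 12.30 and fetal CORIN- cells at 11.66, 1.56-fold higher with CORIN. Both cultured arrays thus lay below both fetal arrays, with the smallest gap between the sources, 0.75, larger than the gap inside either pair. Pitx3, the homeobox factor that acts with NR4A2, had smaller differences of the same signs. Its signal was 7.77 in cultured CORIN+ and 8.03 in cultured CORIN- cells. Fetal CORIN+ cells were at 8.22 and fetal CORIN- cells at 8.07, and this difference of 0.15 is within the MAD of that pair.

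Slc18a2, the vesicular transporter, resembled Ddc in its signs and sizes. It read 9.80 in cultured CORIN+ and 9.55 in cultured CORIN- cells, a difference of 0.25. With 9.43 in fetal CORIN+ and 9.70 in fetal CORIN- cells, the fetal difference was -0.27. Fetal CORIN+ cells, where Nr4a2 was highest, thus had the lowest signal of both Ddc and Slc18a2 among the 4 arrays. Slc6a3, the plasma membrane transporter that appears late in mDA neurons, spanned 0.30 over the 4 arrays. Its signals were 7.03 in cultured CORIN+, 7.09 in cultured CORIN-, 7.16 in fetal CORIN+ and 7.33 in fetal CORIN- cells.

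Calb1, a cytosolic calcium buffer of many neuron types and of a subset of mDA neurons, had the widest span of the 10 genes, 2.58. It read 5.99 in cultured CORIN+ and 5.86 in cultured CORIN- cells. Fetal CORIN+ cells were at 7.28 and fetal CORIN- cells at 8.45, 2.24-fold lower with CORIN and the 132nd lowest difference of 28856. Both fetal arrays thus lay above both cultured arrays, with a smallest gap of 1.30 between the sources, and the cultured arrays differ by 0.13, within the MAD. Drd2, which senses dopamine on target cells and on mDA neurons themselves, was lower in the CORIN+ population of both sources. Its signal was 7.49 in cultured CORIN+ and 7.69 in cultured CORIN- cells. Fetal CORIN+ cells were at 7.84 and fetal CORIN- cells at 8.29, 1.36-fold lower with CORIN. Kcnj6 encodes a potassium channel opened through receptors such as DRD2. It read 6.09 in cultured CORIN+ and 5.90 in cultured CORIN- cells, against 6.08 in fetal CORIN+ and 6.23 in fetal CORIN- cells. No detection call was used, so whether the signals of Gch1, Slc6a3, Kcnj6, Drd2 and cultured Calb1 stand above background was not tested.

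By the 2-fold rule, 0 of the 10 genes were higher and 0 were lower with CORIN in culture, where 0.353% of all clusters were higher and 0.468% lower. In the fetal pair 0 were higher, against 2.67% of all clusters, and Calb1 alone was lower, against 0.672%. The median difference of the 10 was 0.13 in the ESC-derived pair, where 6 were positive and 4 negative, and the median of all clusters was 0.0024. In the fetal pair it was -0.16, with 4 positive and 6 negative, and the median of all clusters was -0.037. Of all clusters, 50.7% were positive and 49.2% negative in the ESC-derived pair, and 40.3% positive and 59.7% negative in the fetal pair. Differences beyond the MAD were found for 7 of the 10 in culture, against 34.6% of all clusters, and for 7 of the 10 in the fetal VM, against 37.8%. The pairs share no array, and Th was positive and Drd2 negative beyond the MAD in both. Nr4a2, Ddc and Slc18a2 were beyond it with opposite signs, as were 7.26% of all clusters. A difference of signs between 2 pairs of single arrays cannot be tested.

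**Figure D2:**
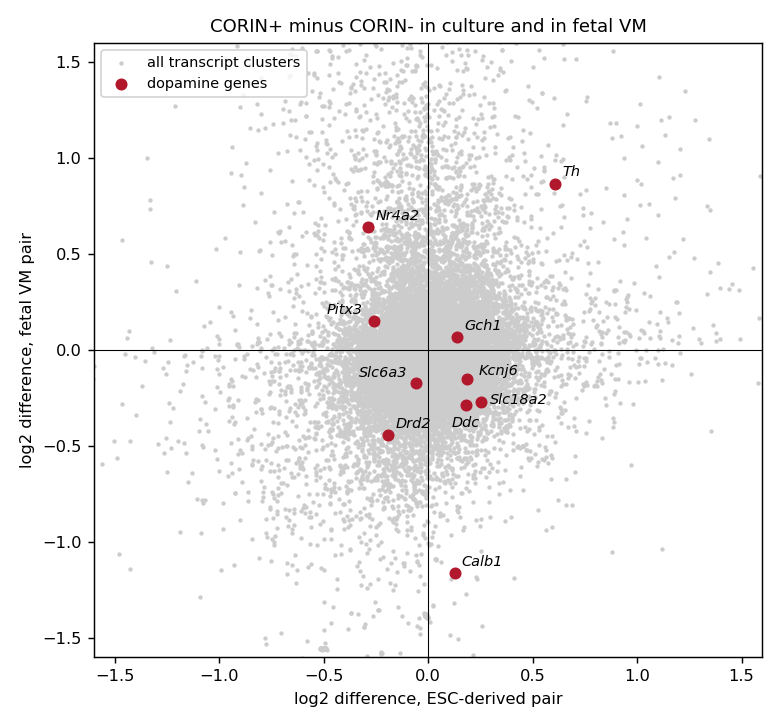
Log2 difference CORIN+ minus CORIN- for cultured cells (horizontal axis) and for fetal VM cells (vertical axis), with 1 array per population. Red points are the 10 genes and grey points all transcript clusters, of which 358 lie outside the axes: Th lies at the upper right (0.61 and 0.87), Nr4a2 at the upper left (-0.29 and 0.64) and Calb1 at the bottom (0.13 and -1.16).

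Cell type markers moved with these pairs. All 14 neuronal markers (Tubb3, Dcx, Stmn2 and others) were lower in the CORIN+ population of both sources, with a median of -0.62 in culture and -0.54 in the fetal VM. The log2 of their summed signal was 13.95 in cultured CORIN+, 14.50 in cultured CORIN-, 15.50 in fetal CORIN+ and 16.05 in fetal CORIN- cells. All 8 measured floor plate markers, Corin included, were higher in the CORIN+ population of both sources, with a median of 0.54 in culture and 0.64 in the fetal VM. Th thus had the sign of the floor plate markers in each pair and Drd2 that of the neuronal markers, while Nr4a2 ran against the neuronal markers in the fetal pair. The 5 GABAergic markers Gad1, Gad2, Slc32a1, Tal2 and Sox14 were each at least 2-fold lower in fetal CORIN+ than in fetal CORIN- cells, with differences from -1.87 to -1.58, beside -1.16 for Calb1. In culture they ranged from -0.98 to 0.22. Macrophage markers were higher in fetal CORIN+ cells, 7 of 8 by at least 2-fold, with a log2 summed signal of 13.67 there and 9.71 in fetal CORIN- cells. Mesenchyme markers were higher too, 8 of 8 by at least 2-fold, with 13.77 in CORIN+ and 11.42 in CORIN- cells. The 3 measured erythroid markers were at least 2-fold higher as well, with 13.70 in CORIN+ and 11.66 in CORIN- cells. Endothelial markers were higher for 5 of 5, 2 of them by at least 2-fold, with 11.60 in CORIN+ and 9.87 in CORIN- cells. The positive sign of Th and Nr4a2 in the fetal pair was thus also that of the macrophage, mesenchyme, erythroid and endothelial markers. In culture 5 of 5 pluripotency markers had a lower signal in cultured CORIN+ cells, with a log2 sum of 9.18 there and 11.80 in cultured CORIN- cells. Of the mesenchyme markers 4 of 8, and of the endothelial markers 2 of 5, were also past 2-fold lower with CORIN in culture. The part of these cell types in the values of the 10 genes was not tested, and in bulk samples fewer cells of a type and less RNA per cell cannot be told apart.

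Compared across sources, cultured cells had less Nr4a2 and Calb1 signal than fetal cells of the same CORIN sort, and Th was slightly higher. In CORIN+ cells, Nr4a2 was 3.20-fold lower in culture than in the fetal VM, the 432nd lowest difference, and Calb1 was 2.45-fold lower. These 2 of the 10 were at least 2-fold lower, against 3.86% of all clusters, and 0 were at least 2-fold higher, against 2.70%. The call of Calb1 between CORIN+ cells was lost, at -0.98, with 32 added to the linear signal, and its cultured signals lie below the 20th percentile of their arrays (6.14 in cultured CORIN+ and 6.16 in cultured CORIN- cells). In CORIN- cells, Calb1 was 6.00-fold lower in culture, the 85th lowest difference of all clusters. It was the only one of the 10 at least 2-fold lower, against 3.53% of all clusters, and 0 were at least 2-fold higher, against 3.94%. Nr4a2 was 1.68-fold lower in this comparison and Drd2 1.52-fold lower. Th was 1.16-fold higher in cultured than in fetal CORIN+ cells, within the MAD, and 1.39-fold higher in cultured than in fetal CORIN- cells. Ddc and Slc18a2 were at 0.39 and 0.37 in the CORIN+ comparison and at -0.08 and -0.15 in the CORIN- comparison. The median of the 10 was -0.061 for CORIN+ cells, against 0.016 over all clusters, and -0.20 for CORIN- cells, against -0.020 over all clusters. Of the 10, 6 lay beyond the MAD in the CORIN+ comparison, against 36.8% of all clusters, and 5 in the CORIN- comparison, against 37.4%.

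**Figure D3:**
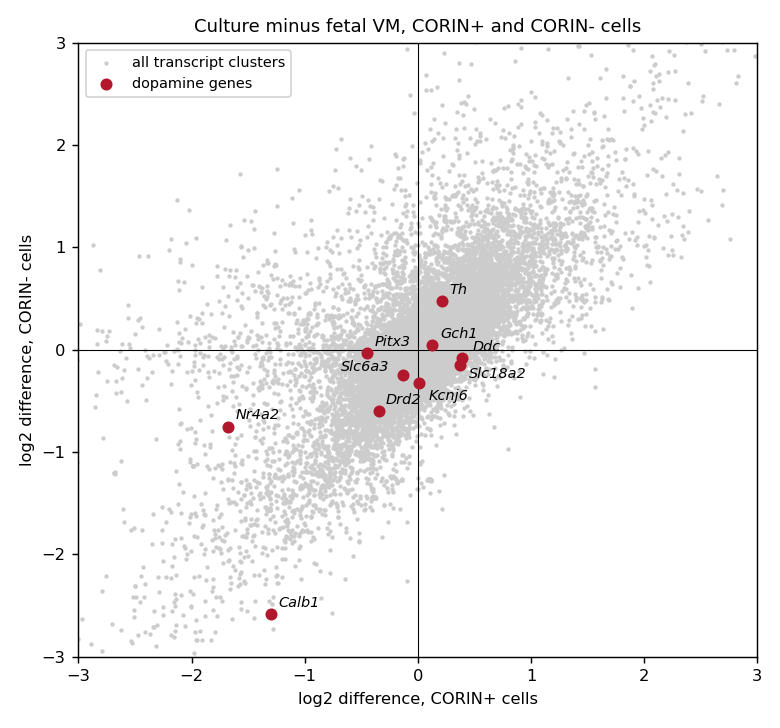
Log2 difference culture minus fetal VM in CORIN+ cells (horizontal axis) and in CORIN- cells (vertical axis), with 1 array per population. Red points are the 10 genes and grey points all transcript clusters, of which 156 lie outside the axes: Nr4a2 (-1.68 and -0.75) and Calb1 (-1.30 and -2.58) lie at the lower left, and the other 8 genes lie within 0.60 of 0 on both axes.

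Neuronal markers were also lower in culture, 14 of 14 in each comparison and 11 of them at least 2-fold, with a median of -1.58 between CORIN+ cells and -1.70 between CORIN- cells. The GABAergic markers had a median of -1.39 between CORIN+ cells and -2.73 between CORIN- cells. All 8 measured floor plate markers, with Foxa2 and Shh among them, were higher in culture in both comparisons, with medians of 1.26 and 1.62. Of the 7 neural progenitor markers, 6 were lower and 1 higher in culture in each comparison, with medians of -0.65 and -0.86. Nr4a2, Calb1, Pitx3, Slc6a3 and Drd2 had the negative sign of the neuronal and of most progenitor markers in both comparisons. Th and Gch1 had the positive sign of the floor plate markers, Gch1 within the MAD in both and Th in the CORIN+ comparison. Slc6a3 was within the MAD in both comparisons and Pitx3 in the CORIN- comparison. Macrophage markers were at least 2-fold lower in cultured than in fetal CORIN+ cells for 7 of 8, and 0 of 8 were past 2-fold between CORIN- cells. Mesenchyme markers were at least 2-fold lower between CORIN+ cells for 7 of 8, erythroid for 3 of 3 and endothelial for 2 of 5. Between CORIN- cells 2 of 3 erythroid markers were at least 2-fold lower in culture. There 4 of 5 pluripotency, 2 of 8 mesenchyme and 1 of 5 endothelial markers were at least 2-fold higher in culture. The part of any of these lists in the values of the 10 genes was not tested.

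The other genes of the pathway were read from 8 lists with 60 measured genes. With CORIN, 2 of the 60 were past 2-fold higher and 1 past 2-fold lower in culture, where 0.353% of all clusters were higher and 0.468% lower. In the fetal pair 4 were past 2-fold higher, against 2.67% of all clusters, and 0 lower, against 0.672%. Between sources, 5 were higher and 6 lower in cultured than in fetal CORIN+ cells, against 2.70% and 3.86% of all clusters. In the CORIN- comparison 7 were higher and 7 lower in culture, against 3.94% and 3.53%. The genes below are those past 2-fold in any comparison and the close relatives of the 10.

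Among genes that break down or convert dopamine, Maob stood out. It encodes a monoamine oxidase of the outer mitochondrial membrane. Its signals were 10.90 in cultured CORIN+, 9.70 in cultured CORIN-, 7.69 in fetal CORIN+ and 6.78 in fetal CORIN- cells. It was thus higher in both CORIN+ arrays than in their partners, as Th was, by 2.31-fold in culture and 1.88-fold in the fetal VM, and it was 9.28-fold higher in cultured than in fetal CORIN+ cells. Its relative Maoa was higher by 0.31 in culture and 0.30 in the fetal VM. Aldh1a1, an aldehyde dehydrogenase of a subset of mDA neurons, was 2.57-fold higher in cultured than in fetal CORIN- cells. Dbh, which turns dopamine into noradrenaline, had within-pair differences of 0.41 and 0.04. The 6 measured genes of tetrahydrobiopterin synthesis and recycling lay under 2-fold in all 4 comparisons, from -0.69 (Pts, between CORIN- cells of culture and fetus) to 0.66 (Pcbd1, between CORIN+ cells).

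The relatives of the transporters and hydroxylases, Slc18a1, Slc18a3, Slc6a2, Slc6a4, Tph1 and Tph2, also lay under 2-fold in all 4 comparisons, with differences from -0.48 to 0.56. The other dopamine receptors Drd1, Drd3, Drd4 and Drd5 lay between -0.34 and 0.48. Kcnj3, a partner subunit of KCNJ6, was lower in the CORIN+ population by 0.38 in culture and by 0.44 in the fetal VM, with the sign of Drd2. The G protein genes Gnao1 and Gnal, which act below such receptors, were lower in culture. Gnao1 was 2.48-fold lower in cultured than in fetal CORIN+ cells and 2.74-fold lower in cultured than in fetal CORIN- cells. Gnal was 2.31-fold lower in cultured than in fetal CORIN- cells. Calb2, the relative of Calb1, had differences of 0.10 in culture and -0.26 in the fetal VM, and was 2.36-fold lower in cultured than in fetal CORIN- cells. The signs of Calb2 were thus those of Calb1 in each comparison.

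Nr4a1 and Nr4a3, the relatives of Nr4a2 that are also known as early response genes, did not follow it between sources. Within the pairs, Nr4a1 had the signs of Nr4a2, at -0.43 in culture and 0.36 in the fetal VM, and Nr4a3 was at -0.35 and -0.36. Nr4a3 was just past 2-fold higher in cultured than in fetal CORIN+ cells, and Nr4a1 was 1.13-fold higher, where Nr4a2 was lower. Pitx1, a relative of Pitx3, lay between -0.29 and -0.16. Among factors that act upstream in mDA progenitors, Ferd3l was 2.30-fold higher with CORIN in culture, and Msx1, Msx2 and Ferd3l were at least 2-fold higher in fetal CORIN+ than in fetal CORIN- cells. Lmx1b, Foxa1 and Ferd3l were at least 2-fold higher in culture in both CORIN classes, and Msx2 was so in CORIN- cells. En2, a homeobox gene of the midbrain and anterior hindbrain, was 25.4-fold lower in cultured than in fetal CORIN+ cells and 17.1-fold lower in cultured than in fetal CORIN- cells. Neurog2, the proneural factor of mDA progenitors, was 2.27-fold lower in cultured than in fetal CORIN+ cells. Its signs were those of Nr4a2 in all 4 comparisons, at -0.38 in culture and 0.18 in the fetal VM.

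Of 14 other measured genes of mDA neurons, Dlk1, Slc10a4 and Ebf1 were at least 2-fold lower in culture in both CORIN classes. Ebf1, a transcription factor of newborn neurons, read 9.52 in cultured CORIN+, 10.46 in cultured CORIN-, 12.06 in fetal CORIN+ and 12.22 in fetal CORIN- cells. Slc10a4, a vesicular protein of cholinergic and monoaminergic neurons, read 6.89 in cultured CORIN+, 6.75 in cultured CORIN-, 8.86 in fetal CORIN+ and 9.71 in fetal CORIN- cells. Its order over the arrays was that of Calb1. Dlk1 was the only gene of this list past 2-fold lower with CORIN in culture. Bnc2, a zinc finger gene, was the only one at least 2-fold higher in fetal CORIN+ than in fetal CORIN- cells (2.76-fold), and it was 2.16-fold higher in cultured than in fetal CORIN- cells. Ret and Gfra1, which form the receptor of the survival factor GDNF, lay between -0.34 and 0.07.

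**Figure D4:**
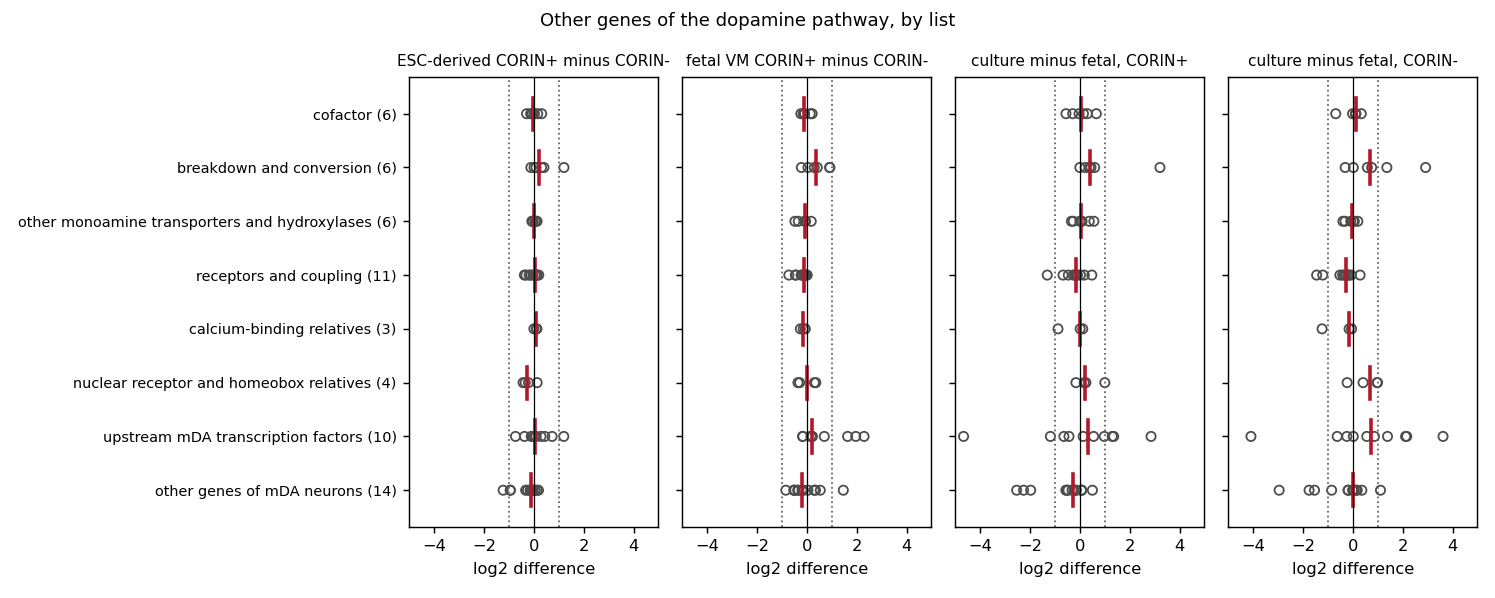
Log2 difference (horizontal axes) of each measured gene in 8 lists of the dopamine pathway, in the 4 comparisons, 1 array per population. The number after each list name counts its measured genes, each drawn as a circle, red bars show list medians and dotted lines 2-fold: most circles lie between the dotted lines, and the upstream transcription factors spread from -4.67 (En2) to 3.62 (Ferd3l).

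Of the 10 genes, 3 spanned at least 1 log2 unit over the arrays (Nr4a2, Th and Calb1), as did 12.2% of all clusters. For these 3, the genes with the most similar pattern over the 4 arrays were found by the root mean square (RMS) distance between signals centred on the mean of the gene. For Th they were Pth1r (0.042 log2 units), Cdkn2c (0.050) and Eda (0.057). Cdkn2c, an inhibitor of cell cycle kinases, read 9.44 in cultured CORIN+, 8.81 in cultured CORIN-, 9.32 in fetal CORIN+ and 8.34 in fetal CORIN- cells. For Nr4a2 they were Cyp2r1 (0.076), Grm7 (0.082) and Coro1a (0.084), the last a gene of leukocytes with 9.68 in fetal CORIN+ and 9.05 in fetal CORIN- cells. For Calb1 they were Stxbp5l (0.056), Tal1 (0.075) and Nxph1 (0.098). Tal1 encodes a transcription factor of GABAergic midbrain neurons and of blood cells, and was at 9.12 in fetal CORIN+ and 10.29 in fetal CORIN- cells. With 4 arrays, a small distance describes these arrays alone.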

How the data were processed

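RNA from at least 100000 sorted cells a population was labelled (Ambion WT Expression Kit) and read on Affymetrix whole-transcript arrays. The table the authors deposited holds log2 signals for 28856 clusters in 4 arrays. Their methods name GeneSpring 13.0. The sources used here do not give the probe summarization, the normalization, any filter or the build, and a normalization that forces equal distributions can hide a shift shared by most genes.

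The array annotation pairs 21789 clusters with 1 symbol, 1621 with several and 5446 with none. For 21698 clusters the symbol was brought up to date by gene identifier (GRCm38.p6), and clusters with several symbols name no gene. The cluster with the highest mean over the 4 arrays represents a gene. Populations were taken from the sample labels.

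Differences were taken in 4 comparisons and counted at 2-fold, without a test. The genes and lists were chosen with earlier results of these data known. Named are the 10 genes, list genes at least 2-fold different in any comparison, close relatives of the 10, and for each of the 10 that spans at least 1 log2 unit the 3 genes of smallest RMS distance. The MAD was scaled by 1.4826. Alternatives were quantile normalization, median centring, 32 added to the linear signal, filters at the 20th and 50th percentile of signal, the mean of all clusters a gene has, and thresholds of 1.5-fold and 3-fold. Python 3.11.15, numpy 2.4.6, pandas 2.3.3 and matplotlib 3.10.9 were used.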

Additional observations from a re-analysis of the deposited data

Results flagged for a closer look

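Nr4a2, Ddc and Slc18a2 had CORIN+ minus CORIN- differences of opposite sign in culture and in the fetal VM, each beyond the MAD of its comparison. Nr4a2 was at -0.29 in culture and 0.64 in the fetal VM. The paper reports higher Nurr1 (Nr4a2) in cultured CORIN+ cells than in the other cultured sorts, against the sign in culture here. By its day 9 immunostaining, NURR1 protein was in cultured CORIN- cells. Ddc was at 0.18 in culture and -0.29 in the fetal VM. Slc18a2 was at 0.25 in culture and -0.27 in the fetal VM. Each pair is 1 array against 1 array, so this difference between sources was not tested, and 7.26% of all clusters met the same condition.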

How the results depend on the processing

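No paired analysis was possible because each population has 1 array and no test was made, and no array could be left out. With 32 added to the linear signal, Calb1 was at -0.98 between CORIN+ cells of culture and fetus and at -2.08 between CORIN- cells, so that 1 gene (Nr4a2) was at least 2-fold lower between CORIN+ cells. With clusters above the 50th percentile in at least 1 array, Calb1 and 4 others leave that comparison, 1 gene was at least 2-fold lower and the median was 0.21. At a threshold of 1.5-fold, 1 gene was higher in the ESC-derived pair, against 1.34% of all clusters, and 2 in the fetal pair, against 4.97%. At that threshold 3 were lower between CORIN- cells of culture and fetus, against 6.8%. At 3-fold, 0 were lower in the fetal pair, against 0.0485%, and 1 was lower between CORIN+ cells of culture and fetus, against 1.71%. The other 60 counts and 23 medians stayed within 1.5 times the count or within the MAD. Part of this was fixed in advance, since a count of 0 cannot rise under a percentile filter or at 3-fold. The genes of opposite sign were 3 after quantile normalization or the addition of 32 and 4 after centring, which added Pitx3. Each gene has 1 cluster, so the mean over clusters could change nothing. Gch1, Slc6a3 and Kcnj6 did not pass the filter at the 50th percentile in any comparison. Drd2 and Calb1 did not pass it in the ESC-derived pair or between CORIN+ cells. At the 20th percentile, Kcnj6 did not pass in any comparison. Gch1 did not pass that filter in the fetal pair or between CORIN- cells, and Calb1 did not in the ESC-derived pair. Background was not measured, which limits what the differences of these 5 genes show. Slide and scan batches were not analysed here.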

Other observations

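Markers of other neurons that make monoamines were read beside Th. Of 4 measured noradrenergic markers, 0 were at least 2-fold different in any comparison, and Phox2a, a homeobox factor of noradrenergic and oculomotor neurons, read 7.49 in cultured CORIN+ and 8.16 in cultured CORIN- cells. Among 4 measured serotonergic markers, Tph2 and Slc6a4 had within-pair differences between -0.34 and 0.06. Gata2 and Gata3, which GABAergic neurons of the midbrain also use, were at -1.45 and -1.53 in the fetal pair. Among 5 measured markers of hypothalamic or olfactory dopaminergic neurons, Dlx1 and Dlx2 were 3.25-fold and 3.03-fold lower in fetal CORIN+ than in fetal CORIN- cells, while Sim1 was at -0.57 in culture and -0.85 in the fetal VM. Th had the opposite sign to each of Dlx1, Dlx2, Otp, Sim1 and Meis2 in the fetal pair. In culture Dlx1 (0.035) had the sign of Th and the other 4 had the opposite sign. In both comparisons of culture with fetus, Sim1 (0.75 and 0.46) had the sign of Th and the other 4 did not. Which cells held the Th transcripts was not tested.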
